A study of Homo sapiens with 6 samples.

Results

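The m6A writer complex and the m6A erasers were followed as 10 genes among the 56638 gene symbols counted in HCT116 cells. The members were taken by symbol, and each had a row in every sample. They were METTL3, METTL14, WTAP, KIAA1429 (the symbol now called VIRMA), RBM15, RBM15B, ZC3H13 and CBLL1 of the writer complex, and the erasers FTO and ALKBH5. All 10 passed the filter on low counts and were tested.

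HCT116 is a human colorectal cancer cell line, and RNA-seq compared 3 WT samples with 3 METTL3-KO samples, all at passages 16 to 19. The WT samples carry the label wild type. METTL3-KO cells were made with CRISPR-Cas9 delivered by lentivirus, puromycin selection and limiting dilution. The study describes a monoclonal line with a DNA fragment inserted at the cut. It reports that the insertion creates a premature stop, and it checked the knockout by Western blot and sequencing. It also reports less m6A in polyadenylated RNA of the knockout cells than of WT cells. The deposited tables, however, call the WT samples NC and the METTL3-KO samples SiM3, a form of name that could also stand for siRNA, and their replicate numbers for WT are not those of the labels. The labels were followed here, and whether the METTL3-KO libraries came from the knockout clone or from cells treated with siRNA was not tested. If they came from the clone, effects of the knockout and of that 1 clone cannot be told apart.

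Methylation of adenosine at its N6 position is the most abundant internal mark of mRNA. It is laid down in the nucleus by a heterodimer, in which METTL3 binds the methyl donor S-adenosylmethionine and transfers the methyl group while METTL14 holds the RNA. A regulatory module built on WTAP brings the heterodimer to nuclear speckles and to its target transcripts, and the dioxygenases FTO and ALKBH5 can remove the mark again.

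The lines that follow give the designed RNAs of the study that match METTL3, shown because they say which stretch of the gene was addressed. The first is the genomic match of the guide RNA of the knockout, written 5′ to 3′ with the PAM, the motif Cas9 needs beside its target, in capitals. It lies on the minus strand of chr14:21971548-21971567 in GRCh37, in exon 3 of the 11 exons of the canonical transcript. It covers bases 472 to 491 of the 1740 bases of coding sequence, and a cut 3 bases before the PAM would fall in codon 163 of 580. The other lines are target sites of siRNAs that the study used against METTL3 in other experiments. They are shown because of the names NC and SiM3 in the deposited tables. METTL3-1 matches exon 6 (chr14:21968787-21968805) and METTL3-2 matches exon 5 (chr14:21969179-21969197), both within coding sequence. Each sequence had 1 exact match on chromosome 14.
METTL3 guide: ggtgctgtggcagaaaagaaGGG
METTL3-1: gctacctggacgtcagtat
METTL3-2: cctgcaagtatgttcacta

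The libraries held between 20936091 and 30142144 counts on genes. Replicate 3 stood apart from the others in both groups. The chi-square per gene was 20.8 and 20.7 between WT replicate 3 and the other WT libraries, against 2.44 between those. It was 10.1 and 7.61 between METTL3-KO replicate 3 and the other METTL3-KO libraries, against 2.23 between those. In WT replicate 3, genes of the longest transcripts lay above their group (median log2 deviation 0.173), and in METTL3-KO replicate 3 they lay below it (-0.0879). All 11 colorectal epithelium markers exceeded 1 CPM in every sample. Their summed level ran from 6560 to 8090 CPM in WT and from 9620 to 10600 CPM in METTL3-KO cells. The sum does not describe each marker. Over all samples KRT8 alone ran from 3480 to 5650 CPM and KRT20 from 218 to 733 CPM. EPCAM ran only from 476 to 560 CPM and CLDN7 from 86.4 to 98.5 CPM. Of the fibroblast markers 1 of 5 exceeded 1 CPM in every sample, as did 1 of 5 blood and immune markers and 0 of 3 endothelial markers.

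In METTL3-KO cells METTL3 and RBM15B were lower and RBM15 was higher, whereas METTL14, WTAP, KIAA1429, ZC3H13, CBLL1, FTO and ALKBH5 did not pass the test. RBM15 and RBM15B are paralogs that take the same place in the complex, and they moved in opposite directions. Levels are given as CPM, counts scaled to a common library size after TMM normalization. A gene was called where edgeR's quasi-likelihood test, adjusted by Benjamini-Hochberg over all 22452 tested genes, put it under an adjusted p of 0.05. By this rule 3 of the 10 members were called (30.0%), against 26.8% of all tested genes, and the share among members was near the background. The 2 called lower and the 1 called higher compare with 13.4% of all tested genes in each direction. The median log2 fold change of the members was 0.07, beside -0.02 for all tested genes. As nothing in the labels says that the replicates were separate cultures, p-values measure the spread between these samples. In such bulk samples, fewer cells carrying an mRNA and less of it per cell cannot be told apart.

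**Figure D1:**
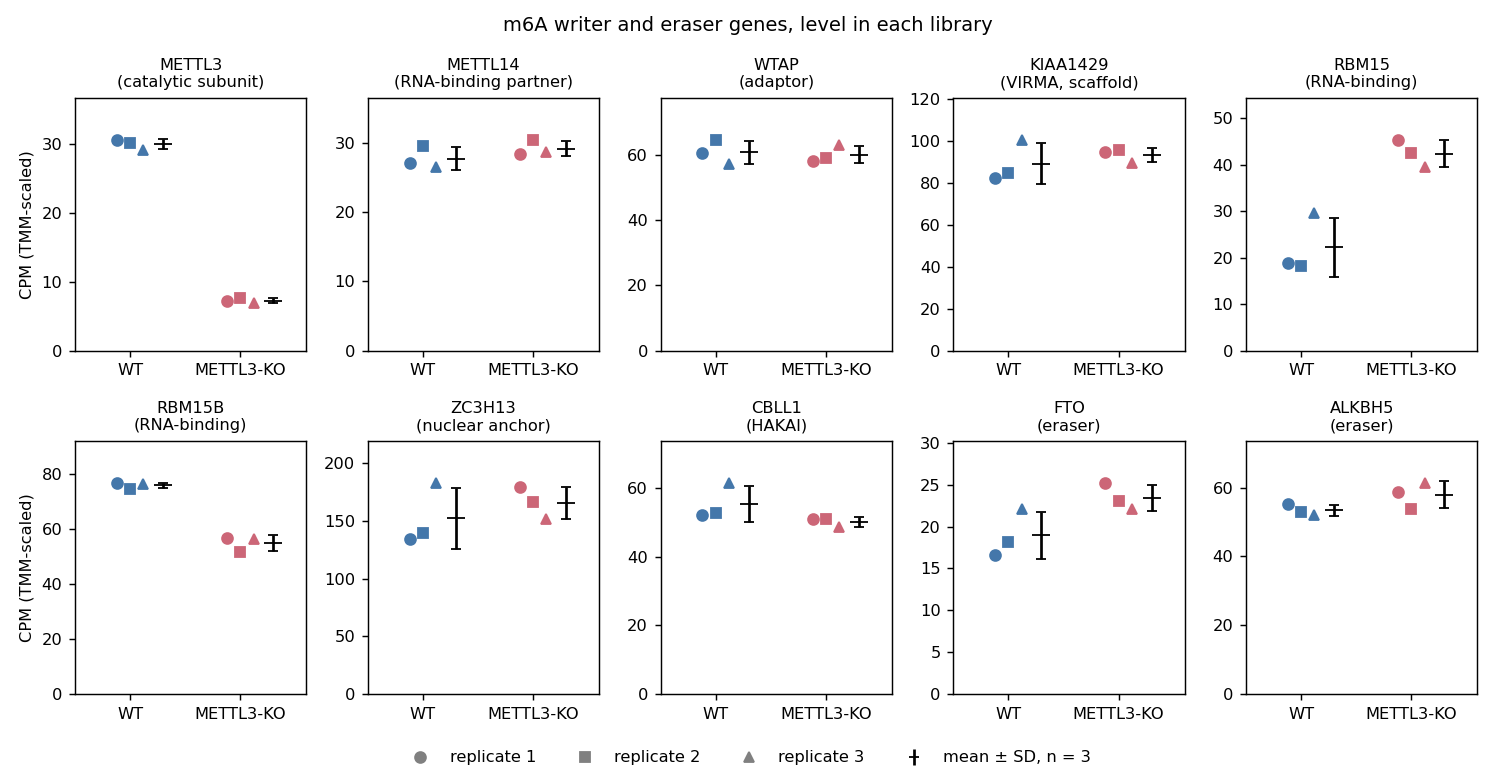
Level of each of the 10 genes in each library, as TMM-scaled CPM on a linear axis that starts at 0, for WT (blue) and METTL3-KO (red); the symbols mark replicates 1 to 3, and the black bars are the mean ± SD of 3 samples. METTL3 and RBM15B are lower and RBM15 is higher in every METTL3-KO sample than in every WT sample, and WT replicate 3 is the highest WT value for RBM15, ZC3H13, FTO, CBLL1 and KIAA1429.

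METTL3, the catalytic subunit, is encoded on the minus strand of chromosome 14 (21966277 to 21979484, GRCh37). Its level was 30.63, 30.17 and 29.21 CPM in the WT samples, and 7.264, 7.688 and 6.888 CPM in the METTL3-KO samples. Every METTL3-KO sample lay far below every WT sample, and the values within a group were close together. The METTL3-KO mean was 24.3% of the WT mean, 4.12-fold lower, so METTL3 mRNA remained detectable in the samples labelled METTL3-KO. The counts behind the METTL3-KO values were 219, 169 and 162 read pairs. The log2 fold change was -2.04, with a 95% interval from -2.24 to -1.85 (adjusted p = 3.27e-07 by edgeR, SE 0.0892). Of the 12905 genes at or above a mean log2 CPM of 1, METTL3 had the 8th lowest log2 fold change. It stayed between -2.08 and -2.0, and called, in all 6 fits that each left out 1 library. As gene-level counts take in read pairs from any exon, they do not tell whether the remaining mRNA carries an edit, and the level alone does not tell a knockout clone from cells treated with siRNA.

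The 3′ end of METTL3 overlaps TOX4, a gene of a nuclear HMG-box protein, on the opposite strand. The study counted in HTSeq's union mode, which sets aside as ambiguous a read pair that matches more than 1 gene. Such pairs were 7.95% to 8.77% of all pairs in these libraries. Whether the counting used strand is not given in the sources used here, so how read pairs in the overlap were treated is not known. TOX4 was at 57.0 ± 2.17 CPM in WT and 62.0 ± 3.87 CPM in METTL3-KO cells (SD, n = 3 each), and the difference did not pass the test (log2 fold change 0.12, adjusted p = 0.264 by edgeR). RAB2B, the nearest separate protein-coding gene at lower coordinates (21157 bp away), encodes a small GTPase of the secretory pathway. It was at 13.7 ± 0.524 CPM in WT and 10.6 ± 0.783 CPM in METTL3-KO cells, with all METTL3-KO samples below all WT samples. Its log2 fold change was -0.37 (adjusted p = 0.0148 by edgeR). The call for RAB2B was lost without WT replicate 1, WT replicate 2, METTL3-KO replicate 1 or METTL3-KO replicate 2, with an adjusted p of up to 0.0777 by edgeR. CHD8, a chromatin remodeller further along on the same side, had a log2 fold change of 0.18 that did not pass (adjusted p = 0.149 by edgeR). On the other side, SALL2 had at most 6 counts in any sample and OR10G3 had 0 in all of them.

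METTL14, the partner that holds the RNA, lies on chromosome 4 from 119606547 to 119636588 on the plus strand. It was at 27.03, 29.55 and 26.49 CPM in the WT samples. In the METTL3-KO samples it was at 28.39, 30.39 and 28.66 CPM. The groups overlapped, with a log2 fold change of 0.07 with a 95% interval from -0.10 to 0.25 (adjusted p = 0.541 by edgeR). The interval does not reach the size of the METTL3 difference in either direction.

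Within each library, METTL3 was set against METTL14 as a ratio of counts, which cancels the depth of the library. The ratio was 1.13, 1.02 and 1.10 in WT and 0.256, 0.254 and 0.241 in METTL3-KO cells. Such a ratio depends on the length of the mRNAs, so its change between the groups can be read but its size cannot be taken as molecules of one per molecule of the other. On the log2 scale it fell by 2.12 (exact permutation test, two-sided, p = 0.1, which 3 samples against 3 cannot go below; 0.14 after Benjamini-Hochberg adjustment over 7 ratios). METTL14 over WTAP was 0.447, 0.458 and 0.463 in WT and 0.488, 0.516 and 0.455 in METTL3-KO cells. These groups overlapped, with a log2 difference of 0.09 (exact permutation test, p = 0.3). METTL3 over WTAP fell by 2.03 on the log2 scale and METTL3 over ALKBH5 fell by 2.16, with no overlap between groups (exact permutation test, p = 0.1 for each).

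WTAP, the adaptor that ties the heterodimer to the regulatory module, lies on chromosome 6 from 160146617 to 160177351 on the plus strand. Its level was 60.42, 64.5 and 57.2 CPM in WT and 58.15, 58.87 and 63.05 CPM in METTL3-KO cells. The groups overlapped over most of their range, and the log2 fold change was -0.02 with a 95% interval from -0.18 to 0.15 (adjusted p = 0.894 by edgeR). WTAP shares sequence on the opposite strand with SOD2, the mitochondrial superoxide dismutase, whose log2 fold change was 0.29 (adjusted p = 0.0201 by edgeR, and up to 0.091 with 1 library left out, the call being lost without WT replicate 1 or 2 or METTL3-KO replicate 1 or 3).

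KIAA1429, the scaffold of the regulatory module that is known for guiding methylation near stop codons, lies on chromosome 8 from 95499917 to 95565757 on the minus strand. It was at 82.53, 84.67 and 100.4 CPM in WT and at 94.6, 95.49 and 89.42 CPM in METTL3-KO cells. WT replicate 3 was above all METTL3-KO samples and the other WT samples were below all of them. The fitted log2 fold change was 0.06 with a 95% interval from -0.13 to 0.25 (adjusted p = 0.624 by edgeR). With replicate 3 of both groups left out together it was 0.18 and passed (adjusted p = 0.00225 by edgeR).

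RBM15 and RBM15B are RNA-binding proteins of the SPEN family that bring the complex to its RNAs. RBM15 lies on chromosome 1 from 110881128 to 110889303 on the plus strand, and RBM15B on chromosome 3 from 51428716 to 51435339 on the plus strand. RBM15 was at 18.94, 18.27 and 29.54 CPM in WT. It was at 45.31, 42.45 and 39.41 CPM in METTL3-KO cells. All METTL3-KO samples were above all WT samples, though WT replicate 3 lay 1.59-fold above the other WT samples. The means were 22.3 ± 6.32 CPM in WT and 42.4 ± 2.95 CPM in METTL3-KO cells (SD, n = 3 each), 1.91-fold higher in METTL3-KO. The log2 fold change was 0.94 with a 95% interval from 0.59 to 1.28 (adjusted p = 0.00109 by edgeR, SE 0.156).

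The call for RBM15 held in all 6 fits that each left out 1 library, with values from 0.83 to 1.19, the highest of them without WT replicate 3. After correction for transcript length and GC content the log2 fold change was 0.91. WT replicate 3 remained above the other WT samples after that correction, by 0.71 on the log2 scale against 0.67 before it. RBM15 is thus the called member with the widest spread in WT, a coefficient of variation of 28.4%.

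RBM15B was at 76.52, 74.54 and 76.15 CPM in WT and at 56.49, 51.5 and 56.42 CPM in METTL3-KO cells. The groups were apart and both were narrow. The means were 75.7 ± 1.05 and 54.8 ± 2.86 CPM (SD, n = 3 each), so that METTL3-KO cells held 72.4% of the WT level. Its log2 fold change was -0.47 with a 95% interval from -0.62 to -0.31 (adjusted p = 0.00066 by edgeR, SE 0.0717), and from -0.49 to -0.42 with 1 library left out, called in all 6 fits. DCAF1, listed under its older symbol VPRBP, overlaps RBM15B on the opposite strand and had a log2 fold change of -0.02 (adjusted p = 0.912 by edgeR).

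The 2 paralogs were also compared within each library. RBM15 over RBM15B was 0.248, 0.245 and 0.388 in WT and 0.802, 0.824 and 0.699 in METTL3-KO cells as a ratio of counts. All METTL3-KO ratios were above all WT ratios, and WT replicate 3 was again the WT sample nearest to the METTL3-KO samples. The log2 difference was 1.43, a 2.7-fold higher ratio in METTL3-KO (exact permutation test, p = 0.1; 0.14 adjusted over 7 ratios). The sum of both genes was 95.46, 92.81 and 105.7 CPM in WT and 101.8, 93.95 and 95.84 CPM in METTL3-KO cells, and these groups overlapped. Per kilobase of exon the sum was 16.2 ± 1.42 CPM in WT and 17.4 ± 0.763 CPM in METTL3-KO cells (SD, n = 3 each), also overlapping. The sum was formed after the values were seen and was not tested. SPEN, the name gene of the family, had a log2 fold change of 0.05 that did not pass (adjusted p = 0.805 by edgeR), but it passed without WT replicate 3 (0.25, adjusted p = 0.0356 by edgeR).

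**Figure D2:**
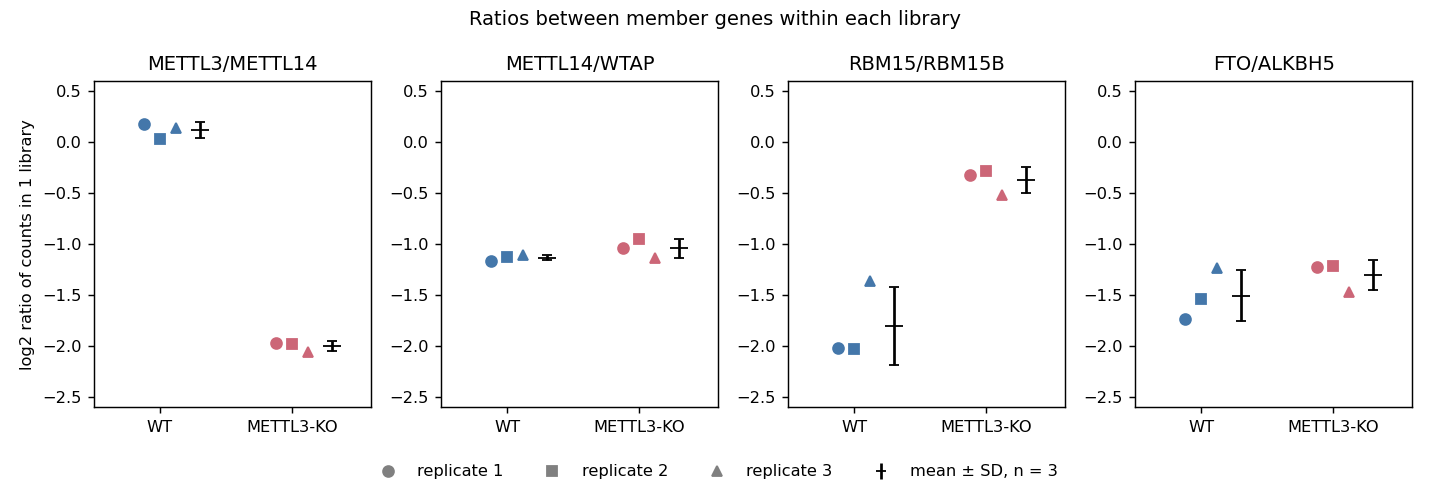
Log2 ratio of the counts of 2 member genes in the same library for 4 gene pairs, in WT (blue) and METTL3-KO (red), with symbols for replicates 1 to 3 and black bars for the mean ± SD of 3 samples. METTL3 over METTL14 is lower and RBM15 over RBM15B higher in every METTL3-KO sample, while the groups overlap for METTL14 over WTAP and for FTO over ALKBH5.

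ZC3H13, a zinc finger protein known for keeping the complex in the nucleus, lies on chromosome 13 from 46528600 to 46626894 on the minus strand. Its level was 134.0, 139.6 and 182.6 CPM in WT and 179.4, 166.2 and 151.2 CPM in METTL3-KO cells. WT replicate 3 was the highest of all 6 samples, and the other WT samples were below all METTL3-KO samples. The log2 fold change was 0.12 with a 95% interval from -0.13 to 0.37, and ZC3H13 did not pass (adjusted p = 0.459 by edgeR). Without WT replicate 3 it was 0.28 and passed (adjusted p = 0.00813 by edgeR). With counts corrected for transcript length and GC content it was 0.10 and did not (adjusted p = 0.183 by edgeR). CPB2-AS1, which overlaps ZC3H13 on the opposite strand, had at most 3 counts in any sample.

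CBLL1, also called HAKAI, is a RING finger protein of the complex first known as a ubiquitin ligase for E-cadherin. It lies on chromosome 7 from 107383518 to 107402112 on the plus strand. The level was 52.12, 52.77 and 61.47 CPM in WT and 50.95, 51.0 and 48.6 CPM in METTL3-KO cells. All METTL3-KO samples lay below all WT samples, but by a narrow margin from WT replicates 1 and 2. The log2 fold change was -0.14 with a 95% interval from -0.33 to 0.04 (adjusted p = 0.235 by edgeR).

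FTO, an eraser that also acts on the cap-adjacent base m6Am, lies on chromosome 16 from 53735604 to 54192424 on the plus strand. It was at 16.57, 18.18 and 22.08 CPM in WT and at 25.18, 23.07 and 22.11 CPM in METTL3-KO cells. The groups did not overlap, but WT replicate 3 and METTL3-KO replicate 3 were almost level. The means were 19.0 ± 2.84 and 23.5 ± 1.57 CPM (SD, n = 3 each). FTO had a log2 fold change of 0.31 with a 95% interval from 0.07 to 0.56, which did not pass after adjustment (adjusted p = 0.0587 by edgeR). DESeq2's Wald test gave an adjusted p of 0.0495, just past the threshold. Without WT replicate 3 the value was 0.44 and passed (adjusted p = 0.00135 by edgeR). With counts corrected for transcript length and GC content it was 0.27 and passed as well (adjusted p = 0.0101 by edgeR), and WT replicate 3 then lay 0.002 above the other WT samples on the log2 scale, against 0.35 before. FTO overlaps RPGRIP1L, a gene of the ciliary transition zone, on the opposite strand, and how read pairs in the overlap were treated is not known. RPGRIP1L was at 18.8 ± 2.25 CPM in WT and 18.2 ± 0.597 CPM in METTL3-KO cells (SD, n = 3 each; log2 fold change -0.04, adjusted p = 0.82 by edgeR).

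ALKBH5, an eraser that resides in the nucleus, lies on chromosome 17 from 18086392 to 18113268 on the plus strand. It was at 55.25, 52.82 and 52.09 CPM in WT and at 58.81, 53.68 and 61.31 CPM in METTL3-KO cells. METTL3-KO replicate 2 lay within the WT range and the other METTL3-KO samples above it. Its log2 fold change was 0.12 with a 95% interval from -0.05 to 0.29 (adjusted p = 0.292 by edgeR). FTO over ALKBH5 was 0.300, 0.344 and 0.424 in WT and 0.428, 0.430 and 0.361 in METTL3-KO cells as a ratio of counts, and the groups overlapped (log2 difference 0.20, exact permutation test, p = 0.2). METTL3 over FTO, the methyltransferase against an eraser, fell by 2.36 on the log2 scale (exact permutation test, p = 0.1).

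**Figure D3:**
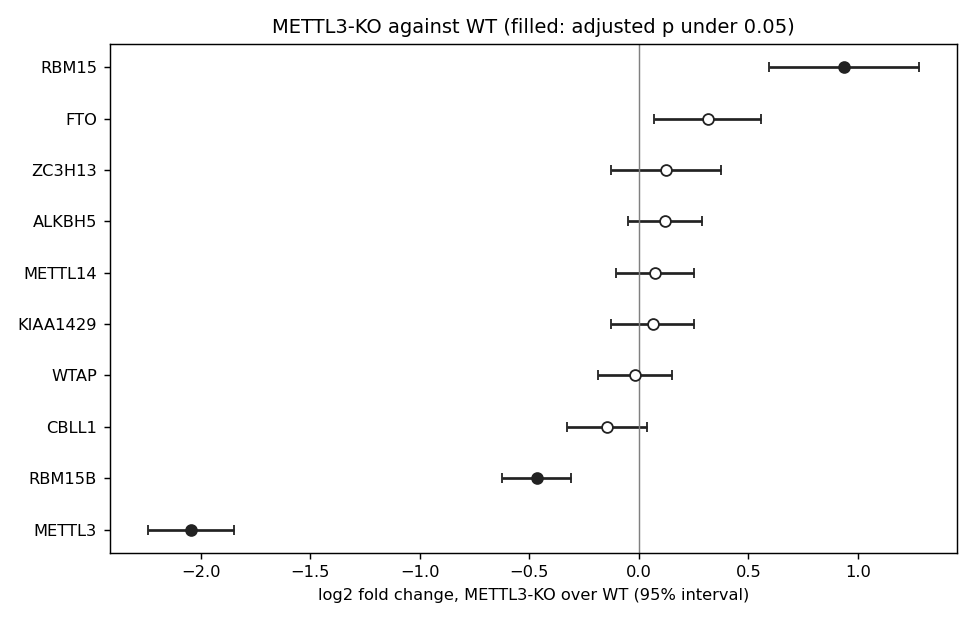
Log2 fold change of METTL3-KO over WT for the 10 genes, with bars for the 95% interval of the fit and filled points where edgeR's adjusted p was under 0.05. Only METTL3, RBM15B and RBM15 are filled, and the interval of FTO runs from 0.07 to 0.56 although its adjusted p did not pass.

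Counted by overlap rather than by test, the groups were apart for 5 of the 10 members, namely METTL3, RBM15, RBM15B, CBLL1 and FTO. Among all tested genes the share was 40.9%. Of the members, WT replicate 3 moved furthest from the other WT samples for RBM15 (log2 difference 0.67), followed by ZC3H13 (0.42), FTO (0.35), KIAA1429 (0.26) and CBLL1 (0.23). After correction for transcript length and GC content the difference was 0.71 for RBM15, 0.16 for ZC3H13, 0.07 for KIAA1429 and 0.16 for CBLL1. It grew for METTL14, from -0.09 before the correction to -0.31 after it, which was then the largest difference after that of RBM15. For METTL3 and RBM15B, the members called lower, it was -0.06 and 0.01 before the correction.

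**Figure D4:**
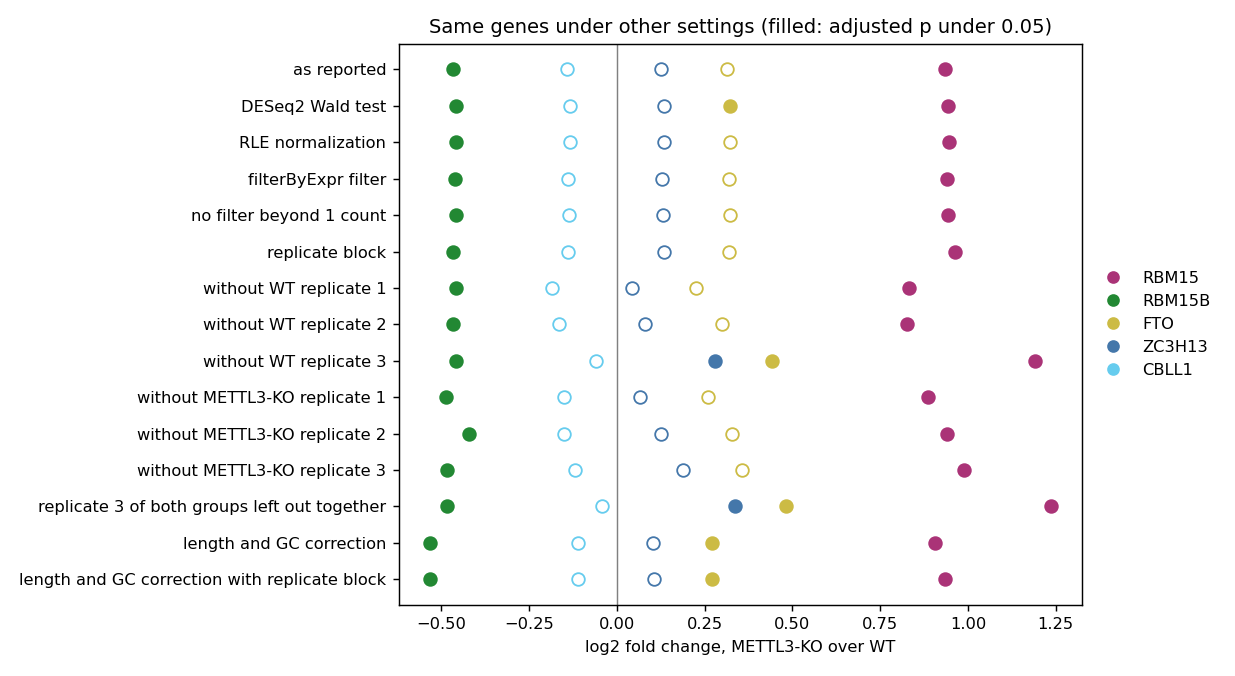
Log2 fold change of METTL3-KO over WT for 5 members under each setting named on the vertical axis, filled where the adjusted p was under 0.05. RBM15 and RBM15B are filled in every row, FTO in the rows for DESeq2, for the fits without WT replicate 3 or without both replicates 3 and for the corrected fits, and ZC3H13 in the fits without WT replicate 3 or without both replicates 3.

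To set the subunits side by side, levels were divided by the length of all exons of a gene in kilobases. In WT the order of levels per kilobase ran from ALKBH5 (14.8 ± 0.460 CPM per kb) and ZC3H13 (14.8 ± 2.59) through RBM15B (11.4 ± 0.159), CBLL1 (10.2 ± 0.957), WTAP (9.47 ± 0.570) and KIAA1429 (8.28 ± 0.907). METTL3 (5.12 ± 0.124), RBM15 (4.76 ± 1.35) and METTL14 (4.05 ± 0.239) followed, and FTO was lowest (0.886 ± 0.133; SD, n = 3 for each). In this order only ZC3H13 and RBM15B, KIAA1429 and METTL3, and METTL14 and FTO were neighbours whose WT samples did not overlap. The order depends on the length used. With the canonical transcript, METTL3 stood at 15.2 CPM per kb and was the 4th of the 10 in WT, and WTAP was the highest at 28.8 CPM per kb. In METTL3-KO cells METTL3 was at 1.24 ± 0.0683 CPM per kb of all exons, 9th of the 10, and the mean of RBM15 was above that of RBM15B with 9.08 ± 0.631 against 8.27 ± 0.432 CPM per kb (SD, n = 3 each). The METTL3-KO samples of these paralogs overlapped, and in METTL3-KO replicate 3 RBM15B was marginally higher (8.52 against 8.44 CPM per kb). By each of 3 definitions of length METTL3 was 9th and FTO 10th in METTL3-KO cells. All 3 lengths came from the same annotation, which is later than the one the study counted with. Exons missing from the earlier annotation would lower a level per kilobase, and this was not tested.

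The mRNAs of the members were also compared in their content of GGACT, read on the transcript strand only, which is the most frequent sequence around m6A sites. Of 11294 protein-coding genes at or above that level (mean log2 CPM of 1), 91.6% hold it in their transcript, at a median of 0.923 per kb. METTL3 held 2.02 per kb in its canonical transcript, WTAP 1.90 and KIAA1429 1.54. RBM15 (0.889) and RBM15B (0.906), which changed in opposite directions, were near that median, and FTO (0.432) and CBLL1 (0.502) were lowest. A match of these letters is a description and not a methylated site.

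The other genes of the pathway were taken from lists of readers, related enzymes and partners. Of 15 m6A readers, the proteins that bind the mark, 14 were tested (IGF2BP1 was near 0 counts), and 4 were higher and 3 lower in METTL3-KO cells. These 7 of 14 stand against 26.8% of all tested genes, and the median log2 fold change of the list was -0.04. Of the 16124 genes kept by edgeR's stricter count filter (filterByExpr), 37.6% were called, and the readers still gave 7. The difference between these shares was not tested. IGF2BP2, known for stabilising marked mRNAs, rose from 96.8 ± 2.02 to 134 ± 1.92 CPM (SD, n = 3 each; log2 fold change 0.47, adjusted p = 0.000317 by edgeR). FXR2 rose by 0.44 (adjusted p = 0.0034 by edgeR) and FXR1 by 0.41 (adjusted p = 0.000855 by edgeR) on the log2 scale, both relatives of the fragile X protein FMR1. YTHDF2, which directs marked mRNAs to decay, and the 3 lower readers are named because they complete the counts and were chosen after their values were seen. YTHDF2 rose by 0.38 on the log2 scale (adjusted p = 0.00181 by edgeR). RBMX, HNRNPC and HNRNPA2B1, nuclear RNA-binding proteins whose access to RNA is known to change with m6A, were lower, with log2 fold changes of -0.27, -0.25 and -0.21. The 4 higher readers were called in all 6 fits that left out 1 library. RBMX was called in 5 of them (not without METTL3-KO replicate 2, highest adjusted p = 0.0717 by edgeR). HNRNPC was called in 2 of them (not without WT replicate 1 or 2 or METTL3-KO replicate 1 or 2, up to 0.124), and HNRNPA2B1 in 1 (without WT replicate 3, otherwise up to 0.143).

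Among 10 other RNA adenosine methyltransferases and their partners, 2 were lower and 0 higher by edgeR (median log2 fold change -0.13). These 2 of 10 stand beside 26.8% of all tested genes, a larger share, and the difference was not tested. At an unadjusted p under 0.05 1 was higher, and DESeq2 called 1 lower and 0 higher. PCIF1, the enzyme that methylates the cap-adjacent adenosine, was at 69.3, 65.4 and 63.8 CPM in WT and 45.6, 41.8 and 46.3 CPM in METTL3-KO cells. All METTL3-KO samples were below all WT samples, with a log2 fold change of -0.57 (adjusted p = 0.000263 by edgeR, SE 0.0759), called in all 6 fits that left out 1 library. METTL4, a methyltransferase of the same superfamily as METTL3, fell by 0.28 on the log2 scale (adjusted p = 0.0353 by edgeR). METTL4 was called in only 1 of those 6 fits, that without WT replicate 3, with an adjusted p of up to 0.117 by edgeR in the others, and DESeq2 gave 0.0588. METTL16, which methylates U6 snRNA and MAT2A mRNA, had a log2 fold change of -0.13 that did not pass (adjusted p = 0.375 by edgeR).

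Of 7 other AlkB dioxygenases, the family of FTO and ALKBH5, 1 was lower and 0 were higher by edgeR. That is 14.3% called, beside 26.8% of all tested genes, with a median log2 fold change of -0.18. No more passed at an unadjusted p under 0.05 (1 lower, 0 higher), and DESeq2 called 0. ALKBH6 was at 7.65 ± 0.146 CPM in WT and 5.78 ± 0.972 CPM in METTL3-KO cells (SD, n = 3 each; log2 fold change -0.42, adjusted p = 0.0414 by edgeR). The call for ALKBH6 was lost without WT replicate 1 or 2 or METTL3-KO replicate 1 or 3 (adjusted p up to 0.18 by edgeR), and DESeq2 gave an adjusted p of 0.0663. Without WT replicate 3, 3 members of this list were called, beside 34.8% of all tested genes.

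The methyl donor cycle supplies S-adenosylmethionine to the writers and clears its product S-adenosylhomocysteine. Of its 8 listed genes 2 were lower and 1 was higher by edgeR (37.5% called, beside 26.8% of all tested genes). The median log2 fold change of the list was -0.11. DESeq2 called 3 lower and 1 higher, as did an unadjusted p under 0.05 by edgeR. AHCY, which hydrolyses S-adenosylhomocysteine, was at 377, 378 and 346 CPM in WT and 180, 171 and 190 CPM in METTL3-KO cells. The groups were far apart, and the log2 fold change was -1.03 (adjusted p = 4.6e-06 by edgeR, SE 0.0716), from -1.06 to -0.99 with 1 library left out. AHCYL2, a relative of AHCY, rose by 0.46 on the log2 scale (adjusted p = 0.00237 by edgeR). MTRR, which keeps methionine synthase active, fell by 0.28 on the log2 scale (adjusted p = 0.0187 by edgeR), and its call was lost without METTL3-KO replicate 1 or 2 (adjusted p up to 0.091 by edgeR). MTR had a log2 fold change of -0.35 with the groups apart and did not pass by edgeR (adjusted p = 0.0516), but DESeq2 gave 0.0403. It passed with the correction for length and GC content (adjusted p = 0.00067 by edgeR). With 1 library left out, MTR was called in 1 fit, that without WT replicate 2. MAT2A, the synthase of S-adenosylmethionine, had a log2 fold change of -0.02 (adjusted p = 0.884 by edgeR). The listed factors known to bind or guide the writer complex were CEBPZ, SETD2, EIF3H and SPEN. Of these 4, 0 were called by edgeR's test, beside 26.8% of all tested genes, and 0 by DESeq2. At an unadjusted p under 0.05 the count was also 0, but SETD2 passed without WT replicate 3 (adjusted p = 0.00386 by edgeR), as SPEN did.

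**Figure D5:**
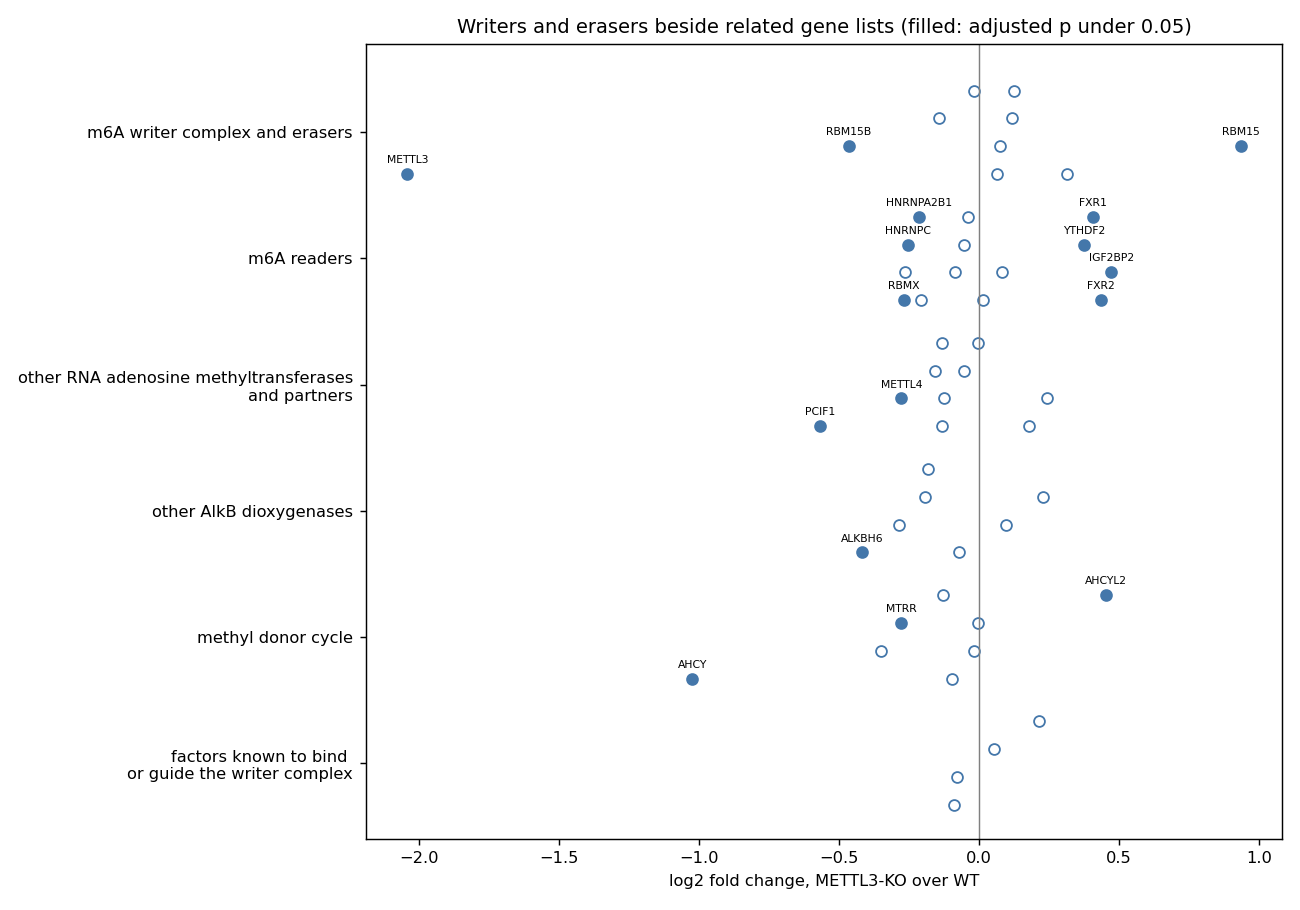
Log2 fold change of METTL3-KO over WT for the members and for the tested genes of 5 related lists, filled and named where edgeR's adjusted p was under 0.05; the vertical spread within a list only keeps points apart. METTL3 (-2.04) and AHCY (-1.03) lie furthest to the left and RBM15 (0.94) furthest to the right.

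For METTL3 and RBM15, the genes whose pattern over the 6 samples was nearest were looked for among the 12904 other genes at or above a mean log2 CPM of 1, by the root mean square distance of centred log2 CPM. Nearest to METTL3 were ALDH9A1, an aldehyde dehydrogenase (distance 0.0828), SMPD1, the acid sphingomyelinase (0.118), and UGT1A10, a glucuronosyltransferase (0.153). UGT1A10 shares exons with the other genes of its locus, so its counts are uncertain. Nearest to RBM15 were the transcription factor genes KLF12 (0.0366) and PROX1 (0.0604) and the phosphatase gene INPP4B (0.0686). KLF12 was at 30.1, 28.4 and 44.4 CPM in WT and 73.1, 64.3 and 61.7 CPM in METTL3-KO cells. WT replicate 3 was thus the highest WT sample for KLF12 as it was for RBM15. PROX1 and INPP4B shared this order, with 8.35 and 26.3 CPM in WT replicate 3 against at most 4.95 and 18.1 CPM in the other WT samples. These distances are descriptions over 6 samples in 2 groups, in which every gene that differs between the groups shares part of its pattern.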

How the data were processed

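RNA-seq counts of HCT116 cells were analysed for 3 WT and 3 METTL3-KO samples, grouped and numbered by the submitters' labels. The authors sequenced paired ends of total RNA libraries (Illumina TruSeq), mapped them to hg19 with TopHat2 (version 2.0.11 in the submitters' processing notes) and used HTSeq to count read pairs for each gene. The deposited values are raw counts for 56638 gene symbols per sample, with no normalization and no pooling. HTSeq's counters of unassigned read pairs, 28.2% to 30.73% of all pairs, were left out.

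Genes with fewer than 5 counts in total in both groups were removed, which left 22452. METTL3-KO was compared with WT by edgeR's quasi-likelihood test (edgeR 4.0.16, R 4.3.3) with TMM normalization, two-sided, and p-values were adjusted by Benjamini-Hochberg over all tested genes. Ratios of counts used a pseudocount of 0.5 and exact permutation tests. No member had fewer than 162 counts in a sample, and the intervals given are those of the fit. Positions, lengths and sequences came from GENCODE and the genome of GRCh37, the authors' build, with 35315 symbols matched. The GENCODE annotation was a later one than that used by the authors for counting. The test was checked on simulated data: with 100 of 21782 genes changed by 0.5 and 100 by 1 on the log2 scale, it called 62 and 99.

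The members and lists were chosen with earlier results of these data known. Named genes were all members, in each list the 3 called genes with the largest absolute log2 fold change plus paralogs of a member, the neighbours of METTL3 and genes overlapping a member, and the 3 genes nearest in pattern to METTL3 and RBM15. Genes named only to complete a count or as background are in addition.

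Alternatives were DESeq2 1.42.0, RLE normalization, other count filters, a block for the replicate number, single libraries left out, a correction of each library for transcript length and GC content (5-df splines through genes over 3 in mean log2 CPM), and other lengths, of which the canonical transcript was added after seeing the data.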

Additional observations from a re-analysis of the deposited data

How the results depend on the processing

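The direction of all members but WTAP held in every alternative, and no call of METTL3, RBM15 or RBM15B was lost. WTAP, at -0.02, changed sign to 0.0388 without WT replicate 2 and 0.0092 without METTL3-KO replicate 1, and ran from -0.0545 to 0.0388 with 1 library left out. Members called higher numbered 1, beside 13.4% of all genes called higher. They numbered 2 with DESeq2 (16.1% of all genes called higher) and with the correction for length and GC content (17.3%). With that correction and the block they also numbered 2 (12.9%). With 1 library left out they numbered 1 to 3, the 3 without WT replicate 3, where 17.4% of all genes were called higher. With replicate 3 of both groups left out they numbered 4 (RBM15, FTO, ZC3H13 and KIAA1429, beside 21.5% of all genes).

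The replicate numbers were those of the labels, from which the deposited tables differ for WT, and were not treated as pairs. Same-numbered samples deviated from their group means with correlations of -0.585, -0.389 and -0.783 across genes, the other pairs with -0.546 to 0.719, and no sample correlated best with its own number. With the number as a block, METTL3 (adjusted p = 0.000758 from edgeR's test), RBM15 (0.0145) and RBM15B (0.0178) were called and FTO was not (0.168). All tested genes then gave 1582 lower and 1694 higher calls, against 3007 and 3012 without it. With the block 4 readers were called, 1 of the other methyltransferases and 0 AlkB dioxygenases, and with block and correction 0 AlkB dioxygenases. Of all tested genes, 14.6% were called with the block and 25.2% with block and correction.

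With replicate 3 of both groups left out, 4810 genes were lower and 4573 higher. Leaving out 1 library gave 1975 to 3820 lower calls, the most without WT replicate 3. The other methyltransferases went from 2 calls to 1 with DESeq2 and with no filter, and to 6 without both replicates 3. AlkB dioxygenases went from 1 call to 0 with DESeq2, 2 with the correction and 5 without both replicates 3. The factors went from 0 to 1 with the correction and 3 without both replicates 3. With 1 library left out, calls ran from 4 to 8 for readers, 1 to 3 for the other methyltransferases, 0 to 3 for AlkB dioxygenases and 0 to 2 for the factors. In those fits 19.3% to 34.8% of all tested genes were called. The share was 44.2% without both replicates 3, 34.3% with the correction and 19.2% with no filter, against 26.8% in the main fit. DESeq2 also called a larger share of its tested genes than the main fit did. Whether the counts of the lists differ from these shares was not tested.

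Levels per kilobase in WT depend on the length used. With the longest transcript they were 11.9 for METTL3, 16.6 for WTAP, 13.8 for KIAA1429, 19.0 for ZC3H13, 13.8 for CBLL1, 1.64 for FTO and 16.9 for ALKBH5. With the canonical transcript they were 15.2, 28.8, 13.8, 19.0, 13.9, 1.64 and 16.9 in the same order, and 6.60 for RBM15. Where a value moved, the cause was not tested.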
